A study of Homo sapiens with 48 samples.

Results

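The FXYD proteins are a family of 7 small regulators of the sodium pump, and they are described here together with ATP1B1, the beta 1 subunit of the pump itself. The 8 genes are rows of a count table of 35535 genes, found by symbol, and all 8 were present. They were chosen from earlier results on these same libraries: both the difference between CPI-0209 and DMSO in each line and the level in DMSO were in view. Their levels, fold changes and calls are therefore given as a description, without p-values, and support nothing beyond themselves.

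RNA was sequenced from 8 established lines of human bladder cancer: 639V, T24, TCCSUP and KU1919, and also HT1197, HT1376, SW780 and VMCUB. In each line, 3 libraries came from cells given 250 nM CPI-0209 for 4 days and 3 from cells given the vehicle DMSO, which makes 48 libraries in 16 groups. CPI-0209 inhibits EZH2, the enzyme of Polycomb repressive complex 2 that methylates histone H3 at repressed genes. The labels name no genetic change made in any line, and the growth medium went with the line. Library totals ranged from 26481418 to 50916911 counts. Whether the 3 libraries of a group came from separate cultures is not said, so that p-values cover the spread between libraries, which may be technical. All 9 epithelial markers had counts in every group, but so did all 6 mesenchymal and all 5 fibroblast markers. Having counts therefore does not set the lines apart.

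The sodium pump, Na,K-ATPase, moves sodium out of the cell and potassium in, and consists of a catalytic alpha subunit and a glycosylated beta subunit. FXYD proteins cross the membrane once, bind the alpha subunit and adjust the affinity or the rate of the pump, each in its own set of tissues. In epithelia, which include the urothelium lining the bladder, the pump drives sodium transport across the cell layer, and its beta 1 subunit also takes part in cell adhesion.

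The stretches of genome around the starts of 4 members are shown first, since these genes gave the contrast that the values turn on. FXYD6 was higher under CPI-0209 in most lines, FXYD3 was lower in several, FXYD5 was nearly level, and ATP1B1 moved a little in both directions. Each stretch is 300 bases, 250 before and 50 after a RefSeq start on GRCh38.p14, written 5' to 3' on the gene's strand, with every CG dinucleotide in capitals. The first FXYD6 window, at chr11:117876609-117876908 on the minus strand, is also the window of the readthrough FXYD6-FXYD2, and the second lies at chr11:117877381-117877680. The FXYD3 window is chr19:35117750-35118049, the FXYD5 window chr19:35154485-35154784 and the ATP1B1 window chr1:169106440-169106739, all on the plus strand.
FXYD6, first start: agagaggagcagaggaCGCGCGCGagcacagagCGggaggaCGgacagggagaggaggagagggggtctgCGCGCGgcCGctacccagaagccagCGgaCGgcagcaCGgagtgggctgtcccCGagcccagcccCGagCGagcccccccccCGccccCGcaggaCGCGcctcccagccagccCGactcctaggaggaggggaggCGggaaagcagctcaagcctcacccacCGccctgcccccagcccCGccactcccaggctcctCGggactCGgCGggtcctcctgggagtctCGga
FXYD6, second start: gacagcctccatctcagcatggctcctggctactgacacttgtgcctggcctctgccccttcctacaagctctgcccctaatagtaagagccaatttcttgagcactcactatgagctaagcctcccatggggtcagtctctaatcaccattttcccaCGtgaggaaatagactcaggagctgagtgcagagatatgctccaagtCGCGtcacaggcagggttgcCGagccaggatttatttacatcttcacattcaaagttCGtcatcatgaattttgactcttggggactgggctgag
FXYD3: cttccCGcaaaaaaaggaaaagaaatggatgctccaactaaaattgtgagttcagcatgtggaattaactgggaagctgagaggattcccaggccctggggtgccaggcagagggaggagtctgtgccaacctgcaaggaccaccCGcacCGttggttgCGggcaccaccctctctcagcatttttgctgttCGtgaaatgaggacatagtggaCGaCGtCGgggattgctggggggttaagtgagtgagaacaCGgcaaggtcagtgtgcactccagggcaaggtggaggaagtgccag
FXYD5: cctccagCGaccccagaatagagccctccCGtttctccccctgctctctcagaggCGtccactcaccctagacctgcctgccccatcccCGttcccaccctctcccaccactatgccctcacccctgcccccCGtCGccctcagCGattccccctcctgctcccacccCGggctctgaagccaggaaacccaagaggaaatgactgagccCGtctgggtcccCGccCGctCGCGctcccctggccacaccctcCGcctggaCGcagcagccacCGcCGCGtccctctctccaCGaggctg
ATP1B1: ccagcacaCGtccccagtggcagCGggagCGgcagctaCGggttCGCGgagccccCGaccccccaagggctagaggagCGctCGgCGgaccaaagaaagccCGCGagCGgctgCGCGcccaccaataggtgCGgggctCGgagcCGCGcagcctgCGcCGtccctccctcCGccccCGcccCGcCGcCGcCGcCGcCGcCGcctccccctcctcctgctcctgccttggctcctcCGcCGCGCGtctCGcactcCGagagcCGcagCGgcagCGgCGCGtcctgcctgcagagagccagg

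CG was counted on 1 strand, which gives the same count on the other, and matches do not overlap. The first FXYD6 window held 28 CG and the second 5, against a median of 14 over the 35116 windows in the table. As many CG or more were present in 26.2% of all windows for the first and in 70.4% for the second. FXYD3 held 9 CG, a count reached by 58.4% of windows, and FXYD5 held 19, reached by 42.9%. ATP1B1 had the densest window, with 41 CG, reached by 6.69%. These counts describe the letters only. FXYD2, FXYD4 and FXYD7 had no window.

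FXYD6, also called phosphohippolin, is best known from the nervous system. In the annotation it runs over chr11:117836976-117877486 on the minus strand. It was the member with the largest fold change, though not the largest difference in CPM. It was higher under CPI-0209 in all 7 lines where enough reads were counted to fit it. In HT1376, VMCUB, T24, SW780 and TCCSUP the DMSO libraries held 15 counts or fewer in sum. There it passed the count filter only through the CPI-0209 libraries, so being fitted and being higher are not separate results. In TCCSUP the 3 CPI-0209 libraries held 923, 557 and 844 counts, against 5, 5 and 5 in DMSO. In 639V they held 1283, 1341 and 1060 counts, against 55, 43 and 55 in DMSO. In T24 they held 112, 173 and 150, against 0, 3 and 1 in DMSO. In each of these lines the lowest CPI-0209 library lay far above the highest DMSO library. The fitted log2 fold change, CPI-0209 over DMSO, was 7.14 ± 0.13 (SE, n = 3 against 3 here and below) in TCCSUP, 4.24 ± 0.11 in 639V and 6.52 ± 0.47 in T24.

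HT1376 had 82, 80 and 62 counts of FXYD6 under CPI-0209 and 0, 0 and 1 in DMSO. Scaled for depth, that is a ratio of 259, with a 95% counting interval of 46.1 to 10287. VMCUB had 18, 16 and 14 counts under CPI-0209 and 0, 0 and 0 in DMSO, so its level was at least 14.4-fold higher, set against a floor of 3 counts over the DMSO group. That floor corresponds to 0.0279 CPM (counts scaled to a common library size with the trimmed mean of M-values, TMM, over all 48 libraries). SW780 had 33, 58 and 39 counts under CPI-0209 and 1, 4 and 3 in DMSO, a log2 fold change of 3.69 ± 0.38. The groups did not overlap in any of these 3 lines.

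KU1919 differed from the rest in its starting level. Its libraries held 19.0, 16.6 and 16.2 CPM of FXYD6 under CPI-0209, against 8.43, 8.50 and 8.91 CPM in DMSO. The groups did not overlap, and the log2 fold change was 1.00 ± 0.08. The level in DMSO was 8.62 ± 0.26 CPM (SD, n = 3) in KU1919, 1.21 ± 0.26 CPM in 639V and 0.143 ± 0.010 CPM in TCCSUP, and at most 0.0556 CPM in the other lines, whose libraries overlapped from each line to the next. Under CPI-0209 the group means reached 22.6 CPM in 639V, 20.1 CPM in TCCSUP and 17.3 CPM in KU1919, but 3.28 CPM in T24, 2.35 CPM in HT1376, 0.797 CPM in SW780 and 0.406 CPM in VMCUB. All libraries of TCCSUP and 639V lay above those of KU1919 under CPI-0209, while the means of SW780 and VMCUB were under 1 CPM. HT1197 had 8, 1 and 0 counts under CPI-0209 and 2, 1 and 0 in DMSO, too few to fit, and the groups overlapped.

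**Figure D1:**
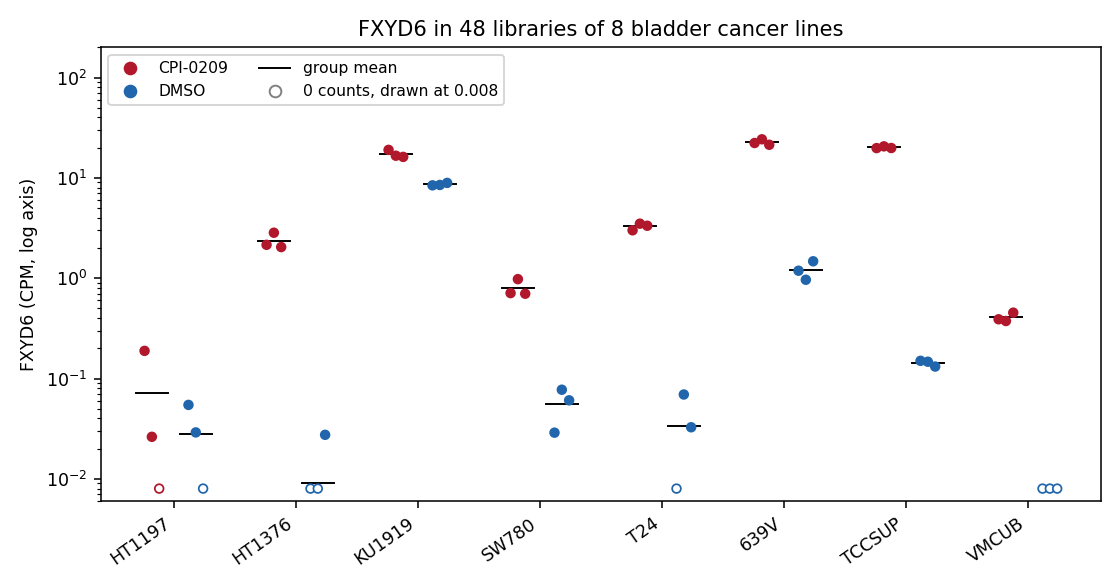
FXYD6 in each library, in CPM on a log axis, by cell line, with CPI-0209 left of DMSO in each line. Filled points are libraries, open points are libraries with 0 counts drawn at 0.008, and lines are means of 3 libraries. CPI-0209 libraries lie above DMSO libraries in every line but HT1197, and the DMSO mean is highest in KU1919, at 8.62 CPM.

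Reads of FXYD6 could be shared with near copies or with the readthrough transcript. The pseudogene FXYD6P1 reached at most 1 count in a library, FXYD6P2 at most 7, and FXYD6P3 was at 0 in all 48. The readthrough FXYD6-FXYD2 held 16, 3 and 3 counts under CPI-0209 and 5, 0 and 2 in DMSO in KU1919, and 5 or fewer per library in the other lines. The annotation also places an antisense gene of the opposite strand within FXYD6, which was not analysed here. The sources used here do not say if reads were assigned by strand, and that gene's part in the FXYD6 counts was not tested. In bulk samples, fewer cells with a transcript and less of it per cell cannot be told apart.

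Neuronal and glial markers, the tissue in which FXYD6 and FXYD7 are best known, were also measured. Of the 7 markers, 6 or 7 had counts in every group. Their summed level was 38.7 to 40.6 CPM under CPI-0209 and 36.2 to 39.6 CPM in DMSO in TCCSUP, and 13.6 to 15.5 CPM under CPI-0209 and 12.9 to 16.3 CPM in DMSO in HT1376. They ran over 13.9 to 17.0 CPM under CPI-0209 and 11.8 to 12.7 CPM in DMSO in KU1919, and over 1.81 to 1.84 CPM under CPI-0209 and 1.06 to 1.48 CPM in DMSO in 639V. They ran over 6.74 to 8.75 CPM under CPI-0209 and 5.68 to 6.18 CPM in DMSO in VMCUB. In HT1197, where the FXYD6 groups overlapped, they ran over 10.8 to 12.9 CPM under CPI-0209 and 10.1 to 10.4 CPM in DMSO. They were higher under CPI-0209 without overlap in these 4 lines, and overlapped in TCCSUP, HT1376, SW780 and T24. STMN2 was at 0 in the DMSO groups of HT1376, KU1919, 639V and TCCSUP and in the CPI-0209 groups of KU1919 and SW780. The 5 fibroblast markers, all with counts in every group, were higher under CPI-0209 without overlap in all 8 lines, HT1197 included, with sums of 7472 to 7696 CPM under CPI-0209 and 5245 to 6104 CPM in DMSO in TCCSUP and of 14.3 to 16.3 CPM under CPI-0209 and 7.02 to 7.32 CPM in DMSO in VMCUB. The part of either marker list in the FXYD6 result was not tested.

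FXYD3, first described as Mat-8 in mouse mammary tumours, is known from epithelial cells, and it was the member called lower most often. It was called lower in SW780, HT1376 and VMCUB, 3 of the 7 lines in which it was tested, and higher in 0. SW780 had 195, 172 and 181 CPM under CPI-0209, against 443, 451 and 455 CPM in DMSO. HT1376 had 151, 163 and 154 CPM under CPI-0209, against 241, 225 and 206 CPM in DMSO. VMCUB had 45.4, 49.8 and 46.8 CPM under CPI-0209, against 80.8, 93.5 and 69.3 CPM in DMSO. All CPI-0209 libraries of these lines lay below all DMSO libraries. The log2 fold change was -1.32 ± 0.05 in SW780, -0.49 ± 0.07 in HT1376 and -0.72 ± 0.10 in VMCUB.

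KU1919 is the remaining line with much FXYD3. It had 91.8, 63.9 and 64.9 CPM under CPI-0209, against 66.9, 65.0 and 63.4 CPM in DMSO, with a log2 fold change of 0.17 ± 0.13. The groups overlapped, and 1 CPI-0209 library, replicate 1, stood above the rest. That library also stood apart from its group over all but the least counted genes. The chi-square per degree of freedom between pairs of libraries was 71.9 and 106 with it, against 8.90 without it. Its part in the FXYD3 values was not tested. The level of FXYD3 in DMSO set the lines far apart. It was 449 ± 6.17 CPM in SW780, 224 ± 17.7 CPM in HT1376, 81.2 ± 12.1 CPM in VMCUB and 65.1 ± 1.75 CPM in KU1919 (SD, n = 3 each), with no overlap between neighbours in this order. HT1197 and T24 followed at 1.63 and 1.297 CPM and overlapped, and the means of TCCSUP and 639V were under 0.3 CPM. FXYD3 did not follow the epithelial markers over all lines. The summed epithelial markers in DMSO were highest in HT1197, at 38486 to 43979 CPM, against 6871 to 7439 CPM in SW780. The SW780 level was 2395 times that in 639V.

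In T24, FXYD3 had 13, 11 and 19 counts under CPI-0209 and 105, 58 and 9 in DMSO. The groups overlapped through DMSO replicate 3, and the log2 fold change of -1.98 ± 0.65 was not called. It was called with DESeq2, in a fit of all 48 libraries and without DMSO replicate 3, and the log2 fold change over 12 alternatives ran between -2.42 and -1.33. Of the 9 epithelial markers, 3 are given by library, and ESRP1 and EPCAM were picked after their values were seen. These 3 ran in the same order over the DMSO libraries as FXYD3 did. CDH1, the epithelial cadherin, was at 0.966, 0.849 and 0.778 CPM under CPI-0209 and at 6.96, 3.004 and 1.08 CPM in DMSO. ESRP1, an epithelial splicing regulator, was at 0.617, 0.647 and 0.289 CPM under CPI-0209 and at 4.02, 1.41 and 0.196 CPM in DMSO. EPCAM, an epithelial adhesion molecule, was at 3.78, 4.00 and 6.23 CPM under CPI-0209 and at 9.47, 6.12 and 3.04 CPM in DMSO. All 3 were highest in DMSO replicate 1, as FXYD3 was. All 9 epithelial markers had counts in both groups. Their sum did not run in this order, at 3106, 3113 and 2661 CPM in DMSO. Under CPI-0209 it was 2511, 2774 and 3149 CPM, so the groups overlapped. The part of these markers in the FXYD3 values of T24 was not tested.

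For the lines in which FXYD3 was called lower, the summed epithelial markers are given too. They ran over 5262 to 5864 CPM under CPI-0209 and 6871 to 7439 CPM in DMSO in SW780, which is lower without overlap. They ran over 5132 to 5877 CPM under CPI-0209 and 4978 to 5774 CPM in DMSO in HT1376, and over 5438 to 5816 CPM under CPI-0209 and 5205 to 6051 CPM in DMSO in VMCUB, which overlap. The 7 urothelial markers summed to 347 to 367 CPM under CPI-0209 and 577 to 640 CPM in DMSO in SW780, and to 416 to 451 CPM under CPI-0209 and 453 to 506 CPM in DMSO in HT1376, lower without overlap in both. In VMCUB they summed to 46.8 to 51.6 CPM under CPI-0209 and 20.4 to 28.7 CPM in DMSO, higher without overlap while FXYD3 was lower. The part of these markers in the FXYD3 result was not tested.

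**Figure D2:**
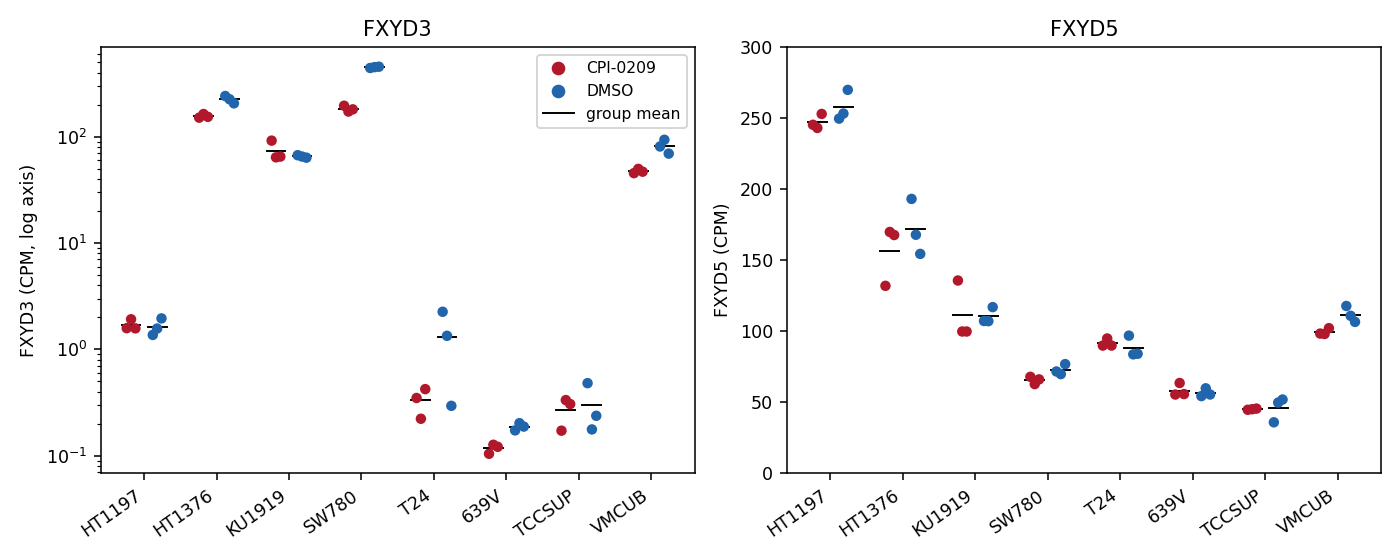
FXYD3 on a log axis (left) and FXYD5 on a linear axis (right), in CPM per library, by cell line, with CPI-0209 left of DMSO and lines at the means of 3 libraries. Mean FXYD3 is 449 CPM in SW780 in DMSO and under 0.3 CPM in TCCSUP and 639V, while the groups of FXYD5 lie close together in every line.

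FXYD5, or dysadherin, is linked to reduced E-cadherin adhesion in carcinoma, and it held at least 1192 counts in every library. In DMSO it was 258 ± 10.8 CPM in HT1197, 172 ± 19.7 CPM in HT1376, 112 ± 5.66 CPM in VMCUB and 110 ± 5.68 CPM in KU1919 (SD, n = 3 each), and the last 2 overlapped. It went down through 88.2 CPM in T24, 72.7 CPM in SW780 and 56.5 CPM in 639V to 45.8 CPM in TCCSUP, with no overlap between these neighbours. Its log2 fold change lay between -0.18 and 0.07 over the 8 lines. SW780 had 67.9, 62.7 and 66.1 CPM under CPI-0209 and 71.6, 69.8 and 76.8 CPM in DMSO, below without overlap, with a called log2 fold change of -0.18 ± 0.05. With library totals in place of TMM this value was 0.02 and not called, and it was not called in the fit of all 48 libraries. In VMCUB the CPI-0209 libraries also lay below the DMSO libraries, with a log2 fold change of -0.11 ± 0.07 that was called only without DMSO replicate 3, and TCCSUP (0.01) was called only without DMSO replicate 1. CDH1 was called higher in HT1376 (log2 fold change 0.38, adjusted p = 0.00122) and TCCSUP (0.62) and lower in SW780 (-0.20, adjusted p = 0.000500), by edgeR's quasi-likelihood test, adjusted after Benjamini and Hochberg.

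The remaining FXYD genes were low in most lines. FXYD2, the gamma subunit of the kidney pump, was high in KU1919 alone in DMSO, at 6.28 ± 0.55 CPM (SD, n = 3), with means of at most 0.0236 CPM in the other 7 lines. KU1919 had 5.31, 3.16 and 3.72 CPM of FXYD2 under CPI-0209 and 6.71, 5.65 and 6.47 CPM in DMSO. The CPI-0209 libraries lay below, and the log2 fold change of -0.63 ± 0.18 was not called, though it was called under 4 of 12 alternatives, DESeq2 and leaving out CPI-0209 replicate 1 among them. HT1376 was the opposite case, with 30, 21 and 27 counts under CPI-0209 and 1, 0 and 0 in DMSO, a ratio of 90.3 with a 95% counting interval of 15.7 to 3612. In the other 6 lines no library held more than 5 counts. Among them, TCCSUP had 2, 4 and 5 counts under CPI-0209 and 1, 1 and 0 in DMSO. In CPM that is higher without overlap, but below the count filter. Kidney tubule markers had counts for 4 of 5 genes under CPI-0209 and for 3 of 5 in DMSO in HT1376, and summed to 4.94 to 7.80 CPM under CPI-0209 and 2.58 to 3.99 CPM in DMSO. Their sum was also higher without overlap in HT1197 (75.5 to 85.8 CPM under CPI-0209 and 31.6 to 42.0 CPM in DMSO), in SW780 and in TCCSUP, where FXYD2 stayed at 5 or fewer counts per library. In KU1919 it was lower without overlap, at 0.859 to 1.002 CPM under CPI-0209 and 1.15 to 1.29 CPM in DMSO. Their part in the FXYD2 result was not tested. FXYD2 shares bases with DSCAML1, annotated on the same strand, which held at most 33 counts in a library.

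FXYD4, or CHIF, is known from the collecting duct of the kidney and from the colon. SW780 had 3.27, 3.17 and 2.98 CPM under CPI-0209 and 4.77, 4.74 and 6.05 CPM in DMSO, below without overlap, with a log2 fold change of -0.75 ± 0.11 that was called. HT1197 had 1.25, 1.18 and 1.49 CPM under CPI-0209 and 1.12, 1.48 and 1.08 CPM in DMSO, with overlap. HT1376 had 11, 8 and 8 counts under CPI-0209 and 4, 3 and 6 in DMSO, higher without overlap but below the count filter. No library of the other 5 lines held more than 1 count.

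FXYD7, a brain member of the family, had 30, 28 and 26 counts under CPI-0209 and 24, 17 and 13 in DMSO in HT1376, with a called log2 fold change of 0.88 ± 0.26 that was lost under 6 of 12 alternatives, among them DESeq2 and leaving out replicate 2 or 3 of either treatment. KU1919 had 52, 30 and 34 counts under CPI-0209 and 29, 26 and 19 in DMSO, with a log2 fold change of 0.78 ± 0.23 that was called only without CPI-0209 replicate 3. In CPM the groups did not overlap in either line. In SW780, below the count filter, FXYD7 was also higher without overlap, with 24 counts in sum under CPI-0209 and 6 in DMSO. FXYD1, or phospholemman, the regulator of the pump in heart and muscle, held at most 27 counts in any library. It was tested in HT1376 (0.32 ± 0.28) and KU1919 (0.74 ± 0.45) and called in neither. Below the count filter, FXYD1 was higher under CPI-0209 without overlap in CPM in SW780, T24 and 639V. The sums were 11, 12 and 25 counts under CPI-0209 and 2, 2 and 7 in DMSO. In HT1197, TCCSUP and VMCUB the groups overlapped. LGI4 overlaps FXYD1 on the opposite strand and held up to 104 counts, so FXYD1 is uncertain.

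ATP1B1 encodes the beta 1 subunit, which the alpha subunit needs to reach the membrane. In DMSO it was 273 ± 10.8 CPM in TCCSUP and 178 ± 3.63 CPM in HT1376 (SD, n = 3 each), both apart from each other and from the other 6 lines, which lay between 76.4 and 56.2 CPM. KU1919, the lowest in DMSO, had 78.6, 77.9 and 75.1 CPM under CPI-0209 and 58.5, 56.3 and 53.7 CPM in DMSO. 639V had 72.5, 75.8 and 78.2 CPM under CPI-0209 and 60.3, 60.5 and 61.4 CPM in DMSO. VMCUB had 83.8, 84.2 and 82.3 CPM under CPI-0209 and 68.7, 73.9 and 66.5 CPM in DMSO. In these 3 lines ATP1B1 was called higher, without overlap, with log2 fold changes of 0.46 ± 0.07, 0.31 ± 0.05 and 0.31 ± 0.06. TCCSUP went the other way, with 227, 219 and 222 CPM under CPI-0209 and 285, 266 and 267 CPM in DMSO, called lower at -0.26 ± 0.05. HT1376 also lay below without overlap, at -0.10 ± 0.05, and was not called. The KU1919 call was lost without DMSO replicate 2 or 3, and the VMCUB call without any 1 of its CPI-0209 replicates or DMSO replicate 1, while the values kept their sign. NME7 overlaps ATP1B1 on the opposite strand, with up to 1454 counts in a library, against at least 1625 for ATP1B1.

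Counted over lines, the members were called higher 12 times and lower 6 times in 38 tests of a gene in a line, with edgeR's quasi-likelihood test at an adjusted p under 0.05. HT1376 had 4 of 7 tested members called, where 39.7% of all genes tested were called. SW780 had 4 of 5 against 61.1% of all genes, VMCUB 3 of 4 against 27.4%, and KU1919 2 of 7 against 11.7%. TCCSUP had 2 of 4 against 48.7%, 639V 2 of 3 against 39.2%, and T24 1 of 4 against 10.3%. In HT1197 0 of 4 were called by edgeR or by DESeq2, and 0 had an unadjusted p under 0.05, where 19.6% of all genes were called. Since these comparisons chose the members, nothing is read from these shares. Members below the count filter, such as FXYD6 in HT1197, were left out of them. In HT1376, VMCUB, T24, SW780 and TCCSUP, FXYD6 entered them only through its CPI-0209 libraries. The median log2 fold change of the tested members was 0.32 in HT1376 and 0.46 in KU1919, beside 0.00 and 0.01 over all genes. The HT1376 median includes FXYD6 and FXYD2, which had 1 DMSO count each there. Both passed the count filter only through the CPI-0209 libraries, so nothing is read from this median. In the other lines the median of the tested members lay between -0.18 and 0.31.

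The response common to the lines was fitted on counts summed within groups. FXYD6 (4.64 ± 0.84 on the log2 scale) and FXYD7 (0.85 ± 0.15) were called, 2 of 6 tested members, where 11.7% of genes were. FXYD3 was at -0.65 ± 0.23, FXYD1 at 0.78 ± 0.30, FXYD5 at -0.06 ± 0.04 and ATP1B1 at 0.06 ± 0.08, none of them called. In the test of whether the response differed between lines, FXYD2, FXYD3, FXYD4, FXYD6 and ATP1B1 were called, 5 of 8, where 58.7% of all genes were called, and FXYD1, FXYD5 and FXYD7 were not.

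**Figure D3:**
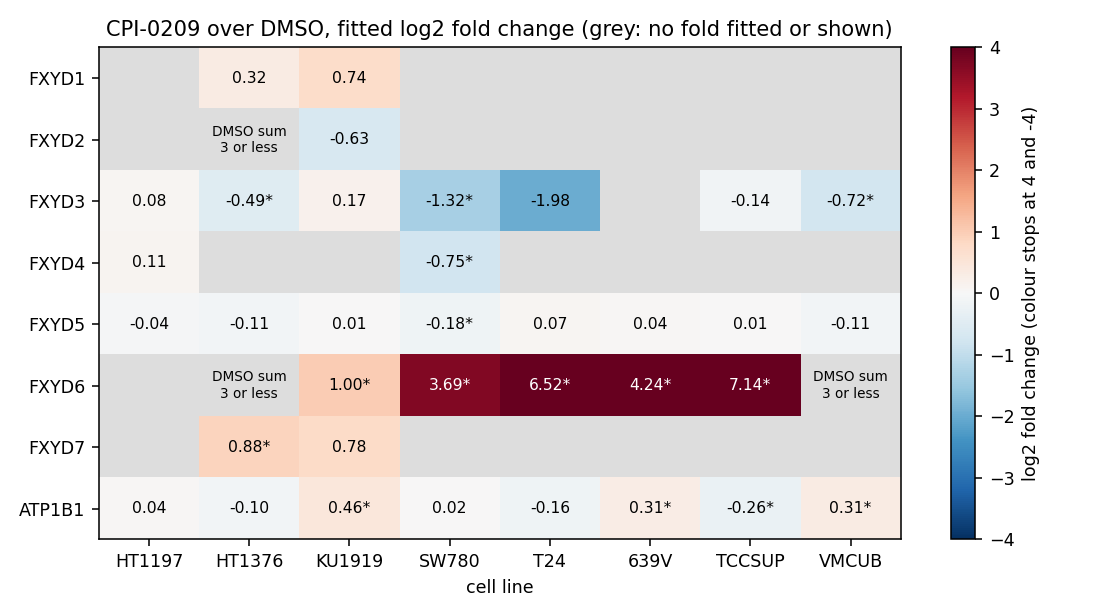
Fitted log2 fold change of CPI-0209 over DMSO for each member (down) in each line (across), as numbers and colour, with a star where the adjusted p was under 0.05. Grey cells were below the count filter or had 3 or fewer DMSO counts, so that no fold is shown. FXYD6 is higher in all lines shown, between 1.00 and 7.14, FXYD3 is lower in 3 lines with a star, and FXYD5 stays between -0.18 and 0.07.

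Set on a scale per length (CPM per kilobase of annotated exons), the make-up of the family differed between lines and moved with CPI-0209. The length joins all annotated exons of a gene, 5137 bases for FXYD6 and 827 for FXYD4. It is not the length of the transcripts present, so the size of each share depends on the annotation. In DMSO, FXYD5 was 97.6% to 98.9% of the FXYD total in HT1197, T24, 639V and TCCSUP, 61.8% in KU1919 and 60.6% in VMCUB, and FXYD3 was 81.5% ± 0.90 of it in SW780 (SD, n = 3). FXYD6 was 20.4% ± 0.37 of the FXYD total per length under CPI-0209 and 0.186% ± 0.048 in DMSO in TCCSUP. In 639V it was 18.3% ± 0.42 under CPI-0209 and 1.23% ± 0.30 in DMSO. In KU1919 it was 5.30% ± 0.51 under CPI-0209 and 2.81% ± 0.03 in DMSO. In SW780 the FXYD3 share was 67.8% ± 0.65 under CPI-0209, and the total of the family was 80.8 ± 4.38 CPM per kilobase under CPI-0209 and 165 ± 3.59 in DMSO. In TCCSUP the total was 19.1 ± 0.20 CPM per kilobase under CPI-0209 and 15.5 ± 2.87 in DMSO.

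**Figure D4:**
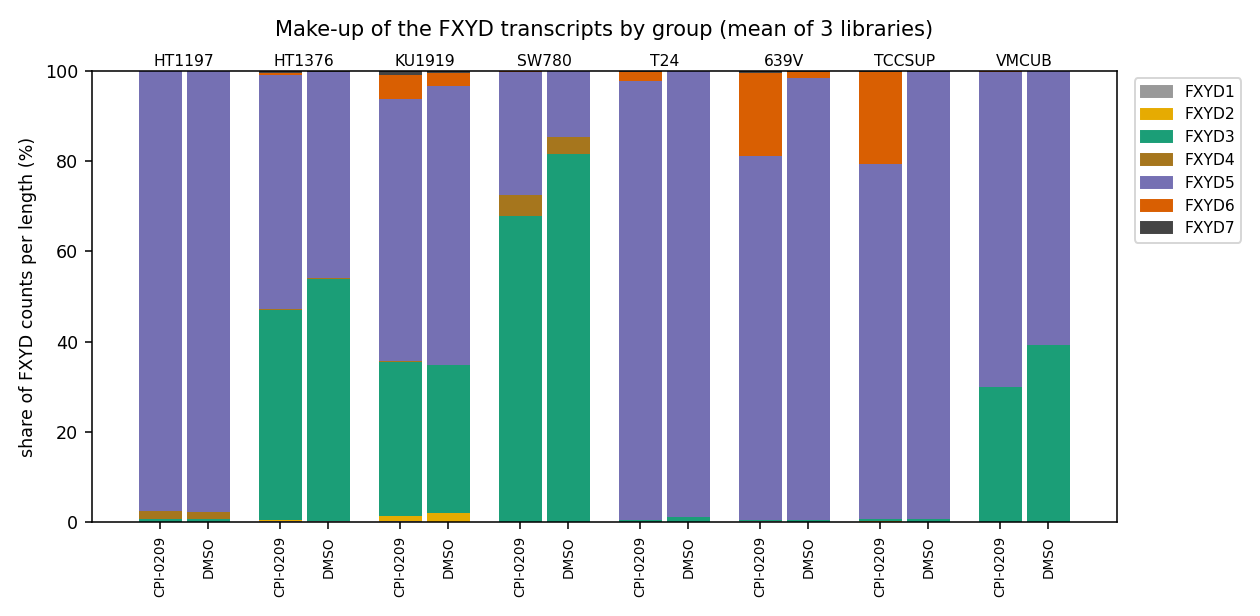
Share of each FXYD gene in the family's counts per length, in percent, as stacked bars for each group (means of 3 libraries), with CPI-0209 left of DMSO in each line. Lengths are those of all annotated exons of a gene joined. FXYD6 takes 20.4% under CPI-0209 in TCCSUP and 18.3% in 639V, and FXYD3 takes 81.5% in DMSO in SW780.

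Other subunits of the pump were not members, so their tests are given, though this list too was chosen with earlier results of these data known. Over 6 genes and 8 lines, edgeR called 13 higher and 9 lower of 35 tests. By line, 4 of 4 were called in HT1376, 4 of 5 in SW780, 4 of 6 in TCCSUP, 3 of 4 in 639V, 2 of 3 in VMCUB, 2 of 4 in KU1919, 2 of 4 in HT1197 and 1 of 5 in T24, to be read beside the shares of all genes called in each line, 10.3% in T24 to 61.1% in SW780. ATP1B2, the beta 2 subunit of glia, rose in 4 of 5 lines tested. KU1919 had 5.98, 5.08 and 5.32 CPM under CPI-0209 and 1.75, 1.38 and 1.68 CPM in DMSO, and 639V had 2.86, 3.17 and 3.99 CPM under CPI-0209 and 1.38, 1.17 and 1.18 CPM in DMSO. The groups did not overlap in either line. The log2 fold changes of the 4 lines were 1.41 to 1.97, and the gene rose by 1.17 ± 0.26 in the shared fit (adjusted p = 0.0270). The 1.97 is from TCCSUP, with 41, 15 and 31 counts under CPI-0209 and 3, 14 and 3 in DMSO. There ATP1B2 passed the count filter only through the CPI-0209 libraries, so being fitted and being higher are not separate results. In HT1197, HT1376 and VMCUB it was below the filter.

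ATP1B3, the beta 3 subunit, fell in 6 of 8 lines. Its log2 fold change was -0.64 ± 0.10 in VMCUB, where it had 334, 327 and 329 CPM under CPI-0209 and 526, 610 and 464 CPM in DMSO, and -0.37 ± 0.05 in the shared fit (adjusted p = 0.0140). It missed the threshold in KU1919 (adjusted p = 0.173), where it was called without CPI-0209 replicate 1, and in T24 (adjusted p = 0.155), where it was called without CPI-0209 replicate 3. Each of these libraries stood apart from its group over all but the least counted genes. In T24 the chi-square per degree of freedom between pairs was 104 and 95.9 with replicate 3, against 4.43 without it. The part of these libraries in the ATP1B3 calls was not tested. The HT1197 call of ATP1B3 was lost in the fit of all 48 libraries. ATP1A4, a subunit known from sperm, fell in HT1376 (-0.61 ± 0.14, adjusted p = 0.00691) and passed in no other line, and this call too was lost in the fit of all 48 libraries.

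Within the beta subunits, the balance between ATP1B1 and ATP1B3 moved the same way everywhere. This share does not depend on library scaling. ATP1B1 made up more of the summed beta transcripts per length under CPI-0209 than in DMSO in 8 of 8 lines, with all CPI-0209 libraries above all DMSO libraries in each. It was 36.97% ± 0.84 under CPI-0209 and 27.2% ± 0.32 in DMSO in 639V (SD, n = 3), and 34.2% ± 2.36 under CPI-0209 and 24.9% ± 1.09 in DMSO in KU1919. In TCCSUP, where ATP1B1 itself was lower, it was 64.3% ± 0.78 under CPI-0209 and 61.2% ± 1.03 in DMSO. The difference in group means lay between 1.83 and 9.72 percentage points over the lines. The ATP1B3 share was smaller under CPI-0209 than in DMSO in all 8 lines. This nearly follows from the ATP1B1 shares, since ATP1B2 made up at most 2.29% in any library. The ATP1B3 group means in CPM were lower under CPI-0209 in every line. Since ATP1B1 is a member, its share is a description. How often shares of other genes separate in this way was not counted, so nothing is read from the number of lines.

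**Figure D5:**
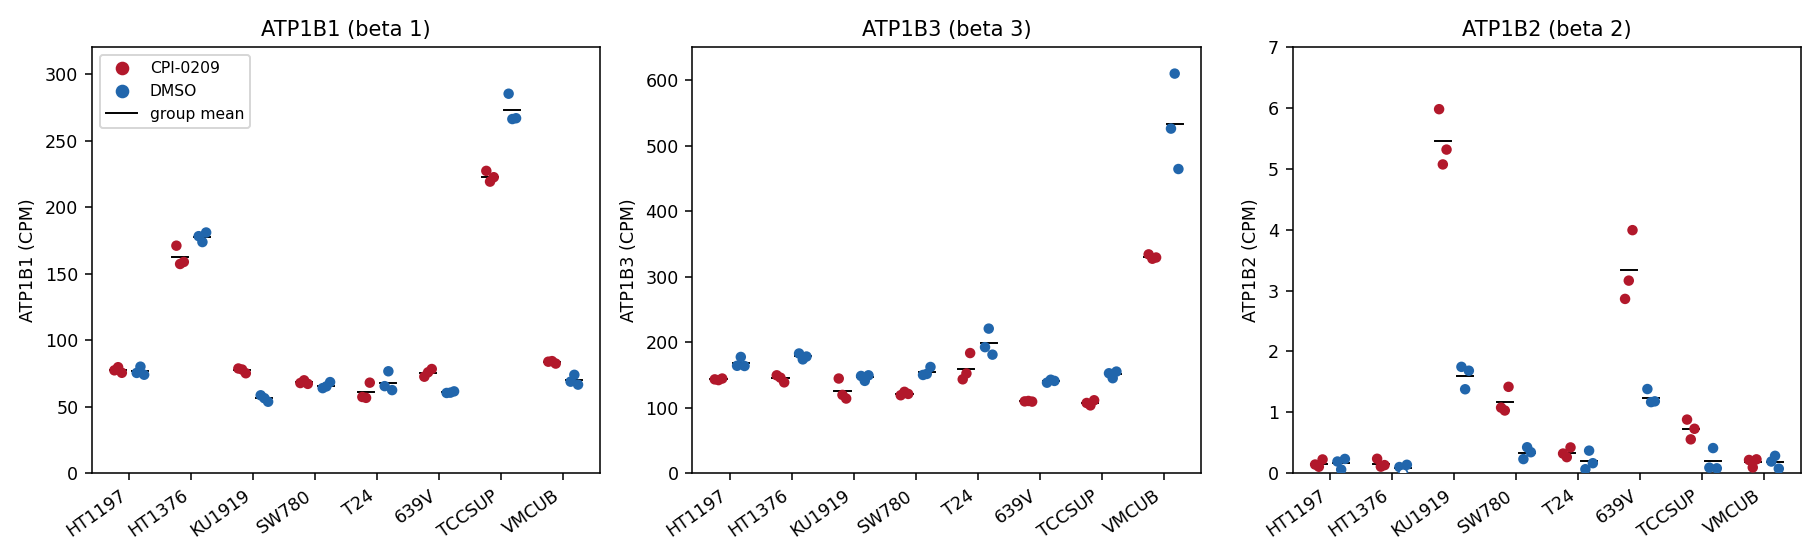
ATP1B1, ATP1B3 and ATP1B2, on linear axes, in CPM per library, by cell line, with CPI-0209 left of DMSO and lines at the means of 3 libraries. ATP1B3 group means are lower under CPI-0209 in every line, ATP1B2 group means are highest in KU1919 and 639V, and ATP1B1 moves in both directions.

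Of 20 genes of sodium, bicarbonate and water transport in epithelia, 56 of 137 tests of a gene in a line were called higher and 16 lower by edgeR. This list was also chosen with earlier results of these data known. By line, 13 of 19 were called in HT1376 and 13 of 19 in SW780, where 39.7% and 61.1% of all genes were. The count was 11 of 17 in 639V, 10 of 15 in TCCSUP and 9 of 15 in VMCUB, beside 39.2%, 48.7% and 27.4% of all genes. It was 7 of 18 in KU1919, 5 of 17 in HT1197 and 4 of 17 in T24, beside 11.7%, 19.6% and 10.3%. SGK1 was called in 7 lines, SLC4A4 and AQP3 in 6, and SLC9A2, SLC12A7, TMPRSS4 and SCNN1A in 5, of which SLC9A2 had the smallest p in the shared fit. SGK1, a kinase that raises sodium channel and pump activity, rose in 5 lines, by up to 1.13 ± 0.08 in SW780, and fell in 639V (-0.74 ± 0.07) and VMCUB (-0.59 ± 0.07). SLC4A4, a sodium bicarbonate cotransporter, rose in 6 lines, by 0.85 to 2.699, and by 1.26 ± 0.34 in the shared fit (adjusted p = 0.0434). AQP3, a water and glycerol channel, rose in 4 lines, by 1.71 ± 0.11 in KU1919, and fell in TCCSUP (-1.02 ± 0.08) and SW780 (-0.24 ± 0.04). SCNN1A, a subunit of the epithelial sodium channel, rose in KU1919 and VMCUB and fell in SW780, TCCSUP and HT1376. SLC9A2, a sodium proton exchanger, rose in 5 lines, by 4.47 ± 0.38 in 639V, and by 1.69 ± 0.43 in the shared fit (adjusted p = 0.0370). The median log2 fold change of the list was 0.53 in HT1376, 0.56 in KU1919, 0.55 in 639V, 0.64 in VMCUB and 0.16 in SW780, and 0.05 in HT1197, -0.04 in T24 and -0.06 in TCCSUP. Over all genes tested it lay between -0.01 and 0.04 in every line.

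Among protein-coding genes within 100 kb of a member, GRAMD1A, a sterol transfer protein gene near the FXYD genes of chromosome 19, rose in 5 lines, by 4.13 ± 0.12 in HT1376 and 2.09 ± 0.15 in VMCUB. TMPRSS13, a membrane protease gene near FXYD6 and FXYD2, rose in HT1376 (3.59 ± 0.12), VMCUB (2.22 ± 0.26) and SW780 (0.53 ± 0.08) and fell in HT1197 (-0.15 ± 0.05). LSR, a tight junction gene near FXYD5, rose in TCCSUP by 1.96 ± 0.07 and fell in VMCUB, SW780, HT1197 and 639V by 0.13 to 0.29, while in T24 it rose by 0.44 ± 0.11. DSCAML1 rose by 1.07 and USF2 fell by 0.69 in SW780, HNRNPF fell in SW780 and HT1197, and NME7 fell in HT1376, SW780 and TCCSUP.

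Likeness was measured as Pearson's r of log2(CPM + 1) over the 16 group means, among 16311 genes, and the points share libraries and lines. The genes most like FXYD6 were GHR (r = 0.93), SLCO5A1 (0.92) and ATRNL1 (0.92). Those most like FXYD3 were TP63 (0.97) and C2orf68 (0.97), and those most like ATP1B1 were C3 (0.97), NPY5R (0.97) and PLXDC2 (0.97). FXYD5 was most like RIOK3 (0.96), MTHFD1L (0.95) and DVL1 (0.95). These are descriptions over few lines. In DMSO over 8 lines, FXYD5 and CDH1 had r = 0.66 and rho = 0.64, and FXYD3 and VIM had r = -0.64 and rho = -0.64, given without a test. These are the largest in size among pairs of a member with CDH1 or VIM. The same members had r = 0.55 for FXYD3 with CDH1 and r = -0.39 (rho = -0.21) for FXYD5 with VIM.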

How the data were processed

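The authors deposited a table of counts, whole numbers for each Ensembl gene in 48 libraries of total RNA. Per the submitters' processing notes, STAR 2.7.3a and RSEM 1.3.1 were used, and the build was hg38. The rounding of RSEM's estimates to whole counts, the annotation and the use of strand are not given in the sources used here. The labels name both a TruSeq kit and a strand-specific protocol. Without molecular identifiers, the intervals hold for counting error alone.

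Symbols came from a gene name table, and coordinates and exon lengths from GENCODE 29 on GRCh38, the same assembly as hg38. Everything else was computed here with edgeR 4.0.16 and DESeq2 1.42.0 in R 4.3.3, and with pandas 2.3.3, scipy 1.17.1 and matplotlib 3.10.9 in Python 3.11.15. Line by line, edgeR's robust quasi-likelihood test compared the treatments on 6 libraries (TMM, filterByExpr, 4 residual degrees of freedom, Benjamini-Hochberg threshold 0.05). The shared fit used 16 group sums with cell line as a term, and differences between lines were tested by F on all interaction terms at once, in 48 libraries. The SE of a log2 fold change is its size over the square root of F. The fits were tested on simulated data. Alternatives were RLE factors, library totals, DESeq2, no filter, a replicate block, 1 fit of all libraries and leaving out each library or line.

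Members, lists and tests were chosen with earlier results of these data known. The text names all members, other pump subunits, the 4 transport genes called in the most lines and those tied with them, the readthrough, overlapping genes, pseudogenes, neighbours within 100 kb, EZH2, CDH1, VIM, marker genes and the genes most like a member. A few results that this rule took are not given in the text. ESRP1 and EPCAM were singled out after their values were seen. EZH2 itself had a shared log2 fold change of 0.03 (adjusted p = 0.513, edgeR).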

Additional observations from a re-analysis of the deposited data

Results flagged for a closer look

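Among the members and the beta subunits of the pump, 6 genes passed the threshold in the test of a difference between lines, and each is given with the gap between its highest and lowest line on the log2 scale. FXYD6 differed by 6.14 between TCCSUP and KU1919, the line with most FXYD6 in DMSO, leaving out lines with 3 or fewer DMSO counts. FXYD3 differed by 2.15 between KU1919 and T24, where 1 DMSO library stood apart from the other 2. FXYD4 differed by 0.861 between HT1197 and SW780, and ATP1B1 by 0.711 between KU1919 and TCCSUP, where it was called in opposite directions. FXYD2 had a ratio of 90.3 in HT1376, from 78 counts under CPI-0209 and 1 in DMSO, and a log2 fold change of -0.63 in KU1919. ATP1B3 differed by 0.423 between HT1197 and VMCUB. These pairs of lines are the extremes, chosen after the values were seen.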

How the results depend on the processing

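FXYD6 was called higher in all 7 lines under all 12 alternatives, though in most of these lines it passed the count filter only through CPI-0209. The calls of FXYD3 in SW780, HT1376 and VMCUB, of FXYD4 in SW780, of FXYD2 in HT1376 and of ATP1B1 in 639V and TCCSUP also held under all 12. The number of members called in T24, 1 as reported, was 2 with DESeq2, which added FXYD3, 3 in the fit of all 48 libraries, which added FXYD3 and ATP1B1, and 1 to 2 when a library was left out. In KU1919 it was 2 as reported and 1 to 3 when a library was left out. Leaving out a library gave 0 in HT1197, 3 to 4 in HT1376, 4 in SW780, 2 in 639V, 2 to 3 in TCCSUP and 2 to 4 in VMCUB. Leaving out a line kept 2 in the shared fit, and leaving out a replicate number gave 4 to 5 for differences between lines, 16 to 20 for the other pump genes (22 as reported) and 57 to 61 for the transport genes (72 as reported). The cause of these changes was not tested. With library totals in place of TMM, the FXYD5 value in SW780 changed sign to 0.0247, while the median of all genes there moved to 0.22, against 0.02 with TMM, and the calls over all genes in SW780 split into 8499 higher and 2839 lower, against 5208 and 5114. In that setting ATP1B1 in SW780 was called at 0.23, close to the shift of all genes. Replicate numbers did not pair the libraries: correlations of deviations of same-numbered libraries lay between -0.208 and 0.135, and at most 1 of 3 numbers per line matched its own best. With the replicate block the counts were 3 in HT1376, which lost FXYD7, and 3 in KU1919, which gained FXYD2, and 0 in HT1197, 4 in SW780, 1 in T24, 2 in 639V, 2 in TCCSUP and 3 in VMCUB, with 5 for differences between lines, 23 for the other pump genes and 70 for the transport genes. Depth limits FXYD1, FXYD2, FXYD4 and FXYD7, which stayed below the count filter in 6 lines each.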
